A study of Mus musculus with 2 samples.

Results

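Molecular chaperones and the regulators of the unfolded protein response were followed in haematopoietic stem cells (HSCs) sorted from mouse bone marrow, as a set of 40 genes among the 54531 genes of the deposited expression table. The 40 were chosen by name and function, as cytosolic, mitochondrial and endoplasmic reticulum (ER) chaperones and the sensors and transcription factors that control them. The rule uses no measured value, although the list was drawn up with earlier results of these data known. All 40 symbols matched a gene identifier. Ddit3 matched 2 identifiers, of which the longer gene model was used, as for any such symbol, and the other was listed at 0 in both libraries.

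The HSCs came from Cdh5-Cre;Angptl2fl/fl mice, labelled as lacking the secreted protein gene Angptl2 in endothelial cells, and from mice labelled as Angptl2fl/fl controls. Expression of Cre is under the Cdh5 promoter, active in endothelium, and both genotype labels carry the floxed Angptl2 alleles. The control library's description names Cdh5 and Cre but no floxed allele, so whether its mice carried Cre is not settled by the labels. Ages, sex, pooling of mice and the sort gate are not stated in what was used here. With 1 library per genotype, called the mutant library and the control library, no test across samples was possible, and higher and lower describe these libraries only.

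Chaperones bind unfolded proteins and help them fold. In the cytosol the HSP70 and HSP90 machines and the ring-shaped chaperonin TRiC share this work, and the transcription factor HSF1 induces many of their genes under heat or other protein damage. In the ER, unfolded proteins activate the sensors IRE1 (Ern1), PERK (Eif2ak3) and ATF6. Through XBP1, ATF4 and cleaved ATF6 they raise chaperone production, and PERK itself limits the initiation of translation. HSCs are known for a low rate of protein synthesis and for sensitivity to misfolded protein.

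On deposited FPKM, chaperone genes were mostly slightly higher in the mutant library (about as often lower as higher once the library totals are set equal) and the sensors of the unfolded protein response slightly lower. Values are FPKM, the number of sequenced fragments per kilobase of exon sequence and 1000000 fragments. Ratios written as log2 without further words are log2((FPKM + 1)/(FPKM + 1)), mutant over control, for genes that average at least 1 FPKM over both libraries. On this scale 0 of the 38 members that could be compared were 2-fold higher or lower. Of all 12325 genes at that mean, 2.47% were at least 2-fold higher and 3.38% at least 2-fold lower, so in so short a list the lack of such genes is near the background. Without the pseudocount 1 member, Hspa1b, was just over 2-fold higher and 0 were 2-fold lower, against 4.11% and 5.13% of all genes. A single member, Hspa1b, was at least 1.5-fold higher and none was at least 1.5-fold lower, against 5.74% and 6.08% of all genes. The median log2 ratio of the 38 members was 0.13, against -0.011 for all genes, and 29 members lay above 0, against 48.4% of all genes. Abundant genes in general leaned the same way. Among the 460 genes that averaged at least 100 FPKM the median ratio was 0.13 and 72.8% were above 0, while the 15 members at that level had a median of 0.18 with 14 above 0.

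The sum over the 40 genes was 5208 FPKM in the mutant library and 4698 FPKM in the control library. As a share of all FPKM this was 1.24% in either library, because the FPKM totals themselves differed, at 419943 in the mutant library and 379052 in the control library. Setting both totals equal shifts plain log2 ratios by -0.15, and the median of all genes became -0.15. The members' median was then -0.017 and 18 of the 38 were above 0, against 30.8% of all genes. The 11 that turned were Hspa4, Hspa8, Hsp90ab1, Hspa9, Tcp1, Cct2, Cct3, Cct5, Cct7, Hspa5 and Dnajb9. Relative to the median of all genes, 29 members were above it on either scale. Statements below about higher and lower are on deposited FPKM, and the common-total value is given where it turns a group's direction.

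**Figure D1:**
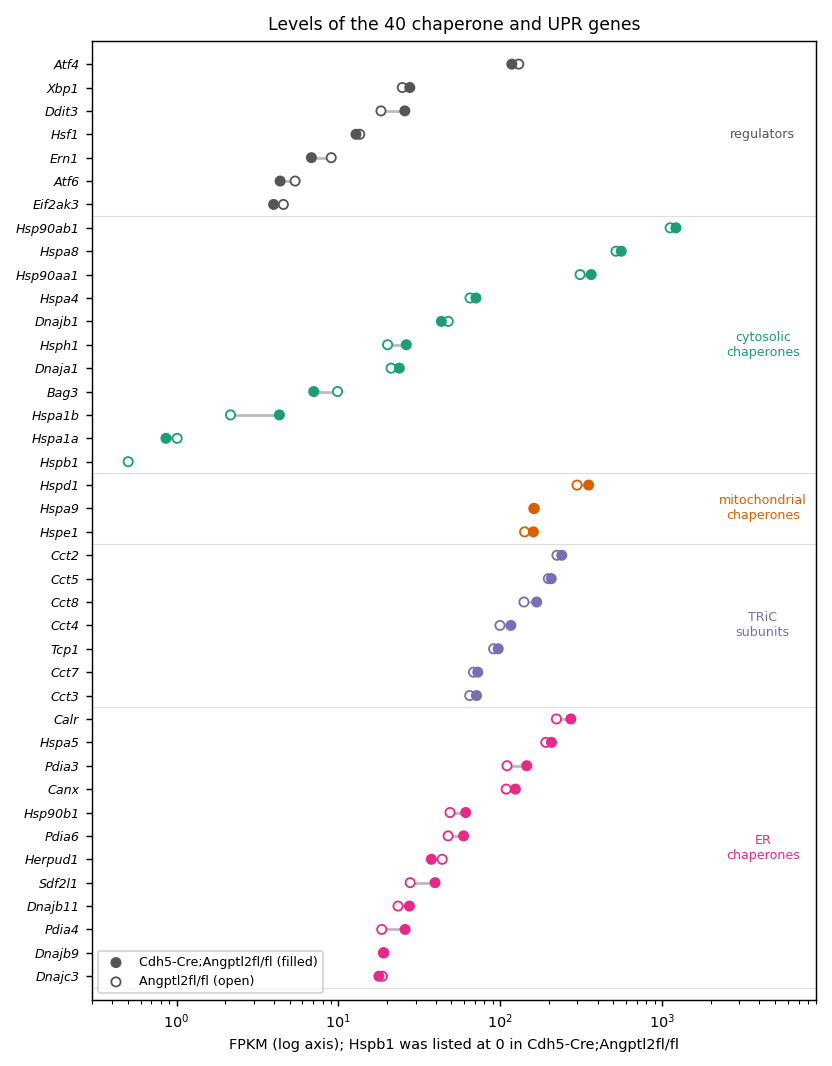
FPKM on a log axis for each of the 40 genes by role, with the mutant library (Cdh5-Cre;Angptl2fl/fl) as filled points and the control library (Angptl2fl/fl) as open points. Pairs lie close together over a range from under 1 FPKM for Hspa1a and Hspb1 to over 1000 FPKM for Hsp90ab1, and Hspb1 has no filled point because it was listed at 0.

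Library depth, estimated from the steps between low values, was 16843100 fragments for the mutant library and 17378600 for the control library. Of 10 HSC markers 9 passed the minimum, and all 9 were lower in the mutant library, with a median log2 ratio of -0.21, and Ly6a was the lowest in ratio at 2.86 against 4.49 FPKM. The 10 erythroid markers summed to 2934 against 2552 FPKM, and 6 of them were lower, with a median of -0.17, among them Alas2 (1.51 against 4.53 FPKM), while the most abundant, Car1, stood at 1629 against 1315 FPKM. Of 9 macrophage and monocyte markers past the minimum 8 were lower, 4 of them at least 2-fold, and the whole list of 10 summed to 113 against 293 FPKM. Of 6 promyelocyte markers 5 reached 2-fold on the high side in the mutant library, with a summed level of 2684 against 1025 FPKM, and of 10 neutrophil markers 8 were at least 2-fold lower, with 1453 against 2556 FPKM. Mitochondrially encoded genes took 13.7% of all FPKM in the mutant library and 8.91% in the control library. In bulk RNA a shift in the number of cells of a type and a shift in RNA per cell cannot be told apart, and the part of any of these in the ratios below was not tested.

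Of the 7 regulators, 5 were lower in the mutant library and 2 higher, with a median log2 ratio of -0.14. Genes of the same FPKM range had a median of -0.0041, with 49.4% above 0. All 3 ER sensors were lower. Ern1, the kinase and nuclease that splices Xbp1 mRNA, was at 6.81 FPKM in the mutant library and 9.03 FPKM in the control library. Its 95% counting interval on the log2 ratio without pseudocount ran from -0.53 to -0.28, from 938 against 1283 fragments. Atf6, the sensor that becomes a transcription factor when cleaved, was at 4.37 against 5.40 FPKM with an interval of -0.45 to -0.16. Eif2ak3, which encodes the kinase PERK, was at 3.98 against 4.57 FPKM with an interval of -0.40 to -0.0065. These intervals cover the error of counting fragments and not the difference between animals, which a single library per genotype cannot show.

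The transcription factors downstream of the sensors did not move together. Atf4, translated when PERK limits initiation, was the most abundant regulator at 118 FPKM in the mutant library and 130 FPKM in the control library, with an interval of -0.20 to -0.086. Ddit3, which encodes the stress-induced factor CHOP, stood at 25.8 against 18.3 FPKM, the highest log2 ratio of the regulators at 0.47, with an interval of 0.33 to 0.65. Xbp1 was at 27.6 against 24.8 FPKM, and its log2 ratio of 0.15 shrank to 0.0062 with a common total. Gene-level FPKM does not separate spliced from unspliced Xbp1 mRNA. Hsf1, the heat shock factor, was at 12.9 against 13.6 FPKM, and its interval of -0.18 to 0.024 included equality. So the regulators held both directions, with CHOP mRNA higher beside lower mRNA of the kinase that leads to it.

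**Figure D2:**
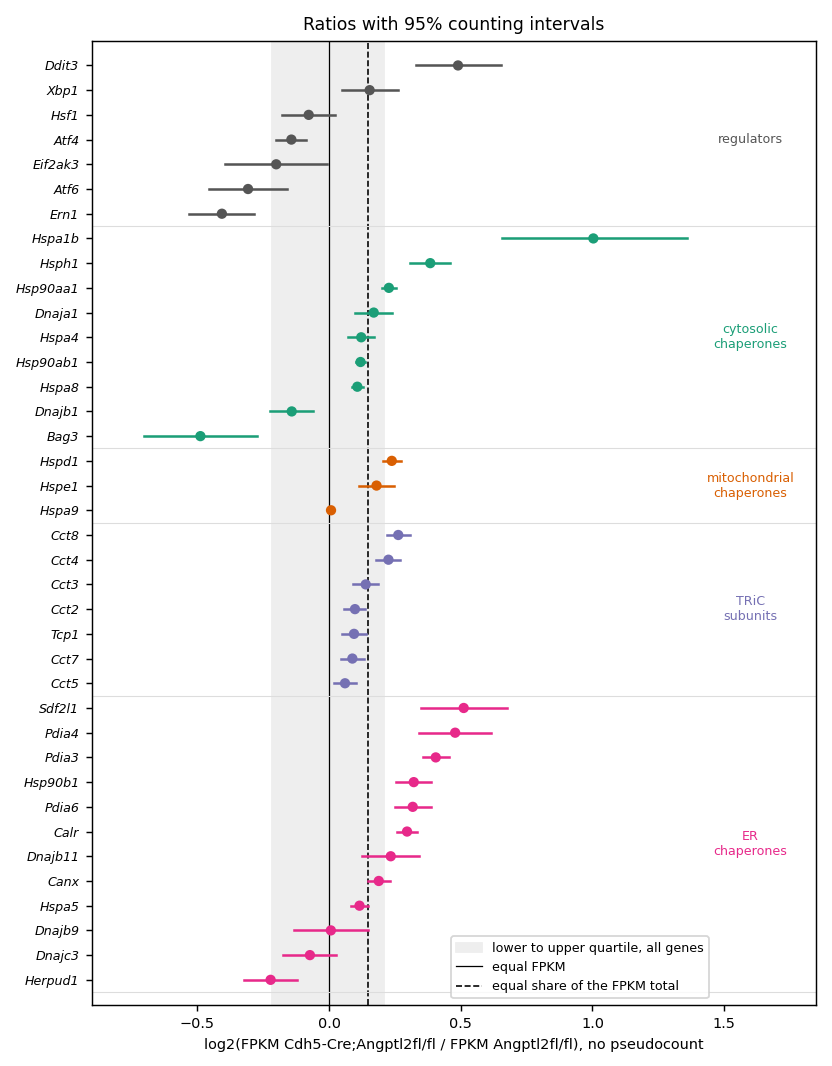
Log2 ratio of FPKM without pseudocount for the 38 genes past the minimum of 1 FPKM, mutant over control, with lines for 95% counting intervals (none for Hspa9, whose fragment number was not recovered). The grey band runs from the lower to the upper quartile of the 11995 genes above 0 in both libraries, -0.22 to 0.21, the solid line marks equal FPKM and the dashed line an equal share of the FPKM total. Most ER chaperones lie right of the dashed line, most TRiC subunits between the lines, and the ER sensors left of 0.

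The 12 genes of ER folding and quality control had the highest median of the role groups, a log2 ratio of 0.26, and 10 of the 12 were above 0. Genes of the same FPKM range, 18.3 to 248 FPKM, had a median of 0.030, with 55.8% above 0. The range was not matched level by level. All genes that averaged at least 50 FPKM had a median of 0.082, with 66.1% above 0, and those of at least 100 FPKM 0.13, with 72.8%. The median of the ER group stayed above 0 with a common total, at 0.12, with 8 of 12 above 0, against 30.8% of all genes. Summed over the 12 the level was 1039 against 881 FPKM, or 0.247% of all FPKM in the mutant library and 0.232% in the control library. The difference between the medians of ER chaperones and regulators was 0.40 on deposited FPKM and 0.41 with a common total. Genes of the corresponding FPKM ranges differed by 0.034, again without matching level by level. The difference between the groups was not tested, since the genotypes have no replicates.

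Within this group the oxidoreductases stood high. Pdia3, which forms disulphide bonds in glycoproteins together with the lectins, was at 146 FPKM in the mutant library and 110 FPKM in the control library, with a counting interval of 0.36 to 0.45 on the log2 ratio. Pdia4 was at 25.8 against 18.5 FPKM and Pdia6 at 59.4 against 47.7 FPKM, with log2 ratios of 0.46 and 0.31. Sdf2l1, a cofactor of the HSP70 cycle in the ER, had the highest log2 ratio of the group at 0.50, from 39.6 against 27.8 FPKM and 739 against 535 fragments. Each of these 4 had an interval wholly above 0, and each also lay above 0 with a common total.

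Among the main chaperones of the ER lumen the differences varied. Hspa5, which encodes BiP, the HSP70 of the ER, was at 208 FPKM in the mutant library and 192 FPKM in the control library. Its log2 ratio of 0.12 became -0.032 with a common total. Hsp90b1 (GRP94, the HSP90 of the ER) was at 61.2 against 49.0 FPKM, with log2 ratios of 0.32 as deposited and 0.17 with a common total. The lectin chaperones that hold glycoproteins during folding were both higher, Calr (calreticulin) at 273 against 223 FPKM and Canx (calnexin) at 124 against 109 FPKM. The ratio of BiP mRNA was thus below those of the 3 oxidoreductases and between the quartiles of all genes, while that of Hsp90b1 was like that of Pdia6.

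The J-domain partners of BiP split. Dnajb11 was at 27.5 against 23.4 FPKM with an interval of 0.13 to 0.34. Dnajb9, at 19.1 against 19.0 FPKM, and Dnajc3, which also inhibits PERK, at 17.8 against 18.7 FPKM, had intervals that included equality. Herpud1, a membrane component of ER-associated degradation and no folding chaperone, was the lowest of the 12 at 37.6 against 43.8 FPKM, with an interval of -0.32 to -0.12.

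Many ER chaperone genes carry in their promoters the ER stress response element, a CCAAT box and a CCACG box at a fixed spacing that is bound by NF-Y together with ATF6 or XBP1. It is shown here because 10 of the 12 ER genes were above 0 on deposited FPKM. Herpud1 and Dnajc3, both with a motif, were below 0. The part of the element in the ratios was not tested. RefSeq promoters (GRCm38.p6), from 250 bases before to 50 bases after the start of the gene, were at hand for 33 of the 40 members, including all 12 of the ER group. CCAAT and CCACG with a spacer of 9 bases, on either strand, were found in 6 of the 33, all of them ER genes, and in 0.137% of 27025 genes with a promoter. The related second element, ATTGG and CCACG with 1 base between them, on either strand, was found in 2 of the 33, Herpud1 and Dnajb11, and in 0.0444% of all. Each sequence below has 30 bases, read in the direction of the motif, with the span of the motif in capitals.
Hspa5: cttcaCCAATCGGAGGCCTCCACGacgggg
Hsp90b1, distal: caagcCCAATCGCAAGGAGCCACGcttcgg
Hsp90b1, proximal: aactcaCCAATCGTGCCTCACCACGcactc
Calr: tatgggCCAATGAGGGTCGACCACGcgttg
Canx: attgaCCAATCACCACGCTCCACGaagaat
Pdia6: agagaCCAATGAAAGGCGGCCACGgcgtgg
Dnajc3: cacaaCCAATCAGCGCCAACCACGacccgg
Herpud1: cgggcgctgATTGGGCCACGttggacactg
Dnajb11: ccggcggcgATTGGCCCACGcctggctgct

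The Hspa5 sequence lies at chr2:34772020-34772049 on the plus strand. Those of Hsp90b1 lie at chr10:86705632-86705661 (minus strand) and chr10:86705527-86705556 (plus strand), and that of Calr at chr8:84847069-84847098 (plus strand, opposite to the gene). Canx has it at chr11:50325794-50325823 (minus strand), Pdia6 at chr12:17266486-17266515 (plus strand) and Dnajc3 at chr14:118937822-118937851 (plus strand). The second element lies at chr8:94386368-94386397 for Herpud1 and chr16:22857843-22857872 for Dnajb11, both on the plus strand, and in Dnajb11 it falls just after the RefSeq start.

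The ER genes with a motif were not those with the highest ratios. The 8 genes with either element had a median log2 ratio of 0.21, from -0.22 (Herpud1) to 0.32 (Hsp90b1). The 4 without these letters in the window, Pdia3, Pdia4, Sdf2l1 and Dnajb9, had a median of 0.43, from 0.0066 to 0.50. Absence of the letters from this window says nothing about sites elsewhere. On either strand, the letters TGACGTGG of the unfolded protein response element and TGATGNAAT of the CEBP-ATF response element bound by ATF4 were found in 0 of the 33 promoters, against 0.714% and 1.08% of all genes.

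In the cytosolic group 7 of the 9 genes past the minimum were above 0 and the median log2 ratio was 0.12. Genes of the same FPKM range had a median of -0.0011, with 49.9% above 0. Among genes that averaged at least 100 FPKM, 72.8% were above 0. With a common total the group's median became -0.025, with 4 of 9 above 0, against 30.8% of all genes. The abundant constitutive chaperones set the level of the whole set. Hsp90ab1, the constitutive cytosolic HSP90, was the highest member at 1220 FPKM in the mutant library and 1123 FPKM in the control library. Hspa8, the constitutive HSP70 (HSC70), was at 560 against 520 FPKM. Their log2 ratios of 0.12 and 0.11 came with narrow counting intervals of 0.10 to 0.14 and 0.087 to 0.13, and both turned below 0 with a common total, at -0.028 and -0.040.

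The more inducible partners differed in both directions. Hsp90aa1, the stress-responsive HSP90, was at 365 FPKM in the mutant library and 312 FPKM in the control library, so that Hsp90ab1 exceeded it 3.34-fold in the mutant library and 3.60-fold in the control library. Hsph1, an HSP110 that exchanges nucleotide on HSP70, was at 26.3 against 20.1 FPKM, with log2 ratios of 0.37 as deposited and 0.23 with a common total. Hspa4, of the same family, was at 70.9 against 65.1 FPKM and the J-domain protein gene Dnaja1 at 23.8 against 21.2 FPKM. Dnajb1, the J-domain partner of inducible HSP70, was at 43.3 against 47.8 FPKM. Bag3, a co-chaperone that links HSP70 to autophagy, had the lowest log2 ratio of all compared members at -0.44, from 7.04 against 9.88 FPKM and 304 against 440 fragments. HSF1 is known to induce Hsph1, Dnajb1 and Bag3, and these 3 did not share a direction. They are only some of the inducible members and do not stand for all of them. Hsp90aa1 and Hspa1b were higher, with log2 ratios of 0.23 and 0.75, while Hspb1, from 9 fragments in the control library, was lower. A common effect of HSF1 was not tested.

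The inducible HSP70 genes Hspa1a and Hspa1b were at low levels, far below Hspa8. Hspa1b was at 4.32 FPKM in the mutant library and 2.16 FPKM in the control library, a log2 ratio of 0.75. Without the pseudocount the log2 ratio was 1.0, with a counting interval of 0.66 to 1.36, from 204 against 105 fragments. Hspa1a was at 0.86 against 1.01 FPKM, under the minimum mean, with an interval of -0.85 to 0.38 from 43 against 52 fragments. The genes are neighbours with nearly the same sequence. Of all 150-base windows (the read length) in the Hspa1b transcript, 40.5% occur unaltered in another gene, and 39.7% of those in Hspa1a do, so the split between them is uncertain. Summed over the pair there were 247 against 157 fragments, a plain log2 ratio of 0.70 with an interval of 0.40 to 1.0. Hspb1, the small heat shock protein, was listed at 0 in the mutant library and at 0.50 FPKM, from 9 fragments, in the control library. Set against a floor of 3 fragments it was at least 2.91-fold lower in the mutant library, taking the 9 fragments as exact. Counting error in both libraries allows a smaller difference, since the 95% interval of the log2 ratio reached up to -0.94. Of its windows, 53.4% also occur in a processed pseudogene.

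Low Hspa1a and Hspa1b stood beside abundant immediate early genes, which cells induce during tissue handling. Jun was at 514 against 528 FPKM and Fos at 283 against 267 FPKM. Of 15 such genes 12 were below 0, with a median log2 ratio of -0.061. The part of tissue handling in the Hspa1b ratio was not tested.

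Other members with copies in the genome nearly kept their ratios when fragments of the genes sharing a window were added, where these had deposited values. Hspa8 shares 55.4% of its windows with other genes, among them processed pseudogenes, and its plain log2 ratio of 0.11 was 0.11 with the copies included. Hsp90aa1 shares 36.2% and had 0.23 and 0.22, Hspd1 shares 18.6% and had 0.24 and 0.24, and Dnaja1 shares 11.6% and had 0.17 and 0.16. The copies held few fragments, at most 284 in either library for a single one of these pseudogenes, while Dnaja1, the parent with the fewest, had 3460 against 3174. Adding them could therefore hardly move a ratio, and it does not show how reads from shared windows were assigned.

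Of the mitochondrial chaperones, Hspd1 and Hspe1 encode HSP60 and its lid HSP10, which form the folding chamber of the matrix, and Hspa9 encodes mortalin, the HSP70 that pulls imported proteins in. Hspd1 was at 352 FPKM in the mutant library and 298 FPKM in the control library, with an interval of 0.21 to 0.27. Hspe1 was at 160 against 142 FPKM, with an interval of 0.11 to 0.25. Hspa9 was at 162 against 161 FPKM. The median of the 3 was 0.18, beside 0.12 for the 139 genes of the same FPKM range, and 0.032 with a common total.

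Hspd1 and Hspe1 sit head to head on chromosome 1 and share a promoter. In FPKM, Hspd1 exceeded Hspe1 2.20-fold in the mutant library and 2.11-fold in the control library. A steady proportion is not particular to this pair. Hspa8 exceeded Hspa5, on another chromosome, 2.70-fold in the mutant library and 2.71-fold in the control library. The part of the shared promoter was not tested. The size of the excess of Hspd1 over Hspe1 depends on length, since the exon sequence of Hspe1 has 1474 bases and its principal transcript 774. Per kilobase of principal transcript, Hspd1 was at 384 and Hspe1 at 305 in the mutant library. In the control library they were at 325 and 270. Between their RefSeq starts lies a run of heat shock element units, the sequence bound by HSF1 trimers. Such units in a run of 3, GAA, TTC and GAA with spacers of 2 bases, on either strand, were found in 3 of the 33 member promoters, Hspd1, Hspe1 and Hsph1, and in 0.662% of all genes, and the first 2 are the same site. The capitals mark the span of all overlapping matches.
Hspe1 and Hspd1, read towards Hspe1: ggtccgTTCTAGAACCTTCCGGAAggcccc
Hsph1: tactgaggaGAACTTTCCAGAAtctgcagc

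The shared site lies at chr1:55088053-55088082 (plus strand, GRCm38.p6), 89 bases before the Hspe1 start and 144 bases before the Hspd1 start, counted to the first base of the motif in the direction of each gene. The Hsph1 sequence is at chr5:149636279-149636308 (plus strand, opposite to the gene) and falls just after the RefSeq starts of that gene. The shorter letters GAANNTTC occurred in 9 of the 33 promoters and 9.04% of all genes. The 7 of those 9 past the minimum of 1 FPKM had log2 ratios from -0.44 (Bag3) to 0.75 (Hspa1b), with a median of 0.18, against 0.13 for the 24 without it.

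The 7 TRiC subunit genes among the members, Tcp1 and Cct2 to Cct8 without Cct6a, were all higher in the mutant library on deposited FPKM, by small amounts. TRiC is the double ring that folds actin and tubulin. Cct6a, a further subunit of the ring that is outside the 40, stood at 109 FPKM in the mutant library and 95.2 FPKM in the control library, which is 0.19 as log2 ratio. The members' log2 ratios ran from 0.060 (Cct5, 207 against 198 FPKM) to 0.26 (Cct8, 168 against 140 FPKM) with a median of 0.098, and all 7 counting intervals lay above 0. Genes of the same FPKM range had a median of 0.070, with 65.7% above 0. With a common total the TRiC median was -0.049 and only Cct4 and Cct8 of the 7 stayed above 0. All genes then had a median of -0.15, with 30.8% above 0. Cct4 was at 117 against 99.7 FPKM. The group was the most even of the role groups, with no member past 0.26 or under 0.060.

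TRiC subunits join in equal numbers in each ring, while the FPKM of the 7 members spread 3.37-fold in the mutant library and 3.46-fold in the control library, from Cct3 (71.4 against 64.8 FPKM) to Cct2 (240 against 224 FPKM). FPKM divides by all annotated exon sequence of a gene, and this length ran from 2557 bases for Cct2 to 6778 bases for Cct7, whose principal transcripts measure 1959 and 2441 bases. Per kilobase of principal transcript, a measure chosen after seeing the data, the 7 spread 1.59-fold in the mutant library and 1.76-fold in the control library. On that scale the levels ran from 197 (Cct4) to 314 (Cct2) fragments per kilobase and 1000000 fragments in the mutant library, and from 169 (Cct4) to 296 (Cct5) in the control library. Levels of different genes in FPKM therefore carry the length of their gene models, while the ratio of a gene between libraries does not depend on it.

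**Figure D3:**
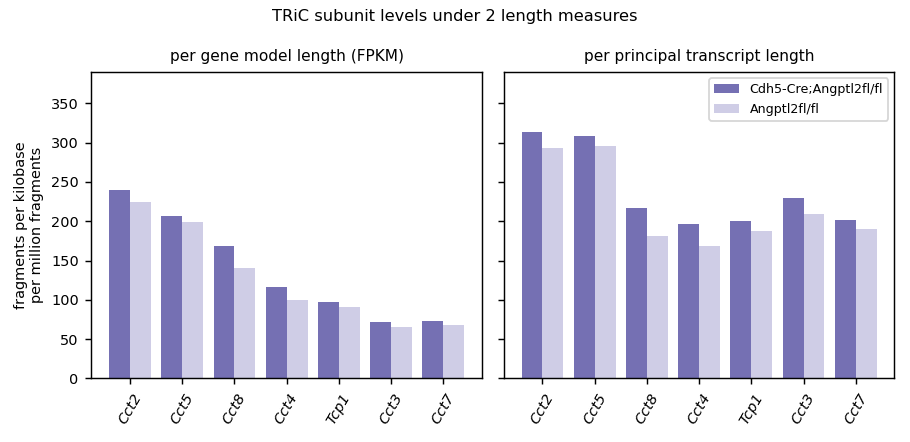
Bars give the level of each of the 7 TRiC subunits among the members, ordered by gene model length, in the mutant library (dark) and the control library (light), in fragments per kilobase and 1000000 fragments. Divided by gene model length (left) the subunits spread 3.37-fold in the mutant library, and divided by principal transcript length (right) 1.59-fold.

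Further genes of these pathways were listed by function. The ER folding and cytosolic lists leaned the same way as the members of those roles. Of genes of the same FPKM ranges, 48.1% and 47.9% were above 0, in that order. Of 31 other genes of ER translocation and folding, 24 were above 0, with a median log2 ratio of 0.18 (0.040 with a common total). The highest were Manf, a secreted ER stress protein, at 25.7 against 16.4 FPKM, and Ostc, a subunit of the oligosaccharyltransferase, at 28.3 against 18.8 FPKM. The lowest were Prkcsh, the beta subunit of glucosidase II, at 42.7 against 48.3 FPKM and Uggt1, the glycoprotein folding sensor, at 8.53 against 9.58 FPKM. Of 45 other cytosolic chaperones and co-chaperones 35 were above 0, with a median of 0.18 (0.048 with a common total). Their ends were the prefoldin subunit Pfdn4 at 8.60 against 5.02 FPKM and Cacybp at 79.6 against 52.4 FPKM, and at the low end Dnaja4 at 3.08 against 5.05 FPKM and Hspa12b at 1.76 against 2.70 FPKM.

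The lists of signalling, degradation and mitochondrial genes had lower medians. Of genes of the same FPKM ranges, 47.6%, 48.7% and 49.2% were above 0, in that order. Of 20 other genes of the unfolded protein and integrated stress responses 9 were above 0 and the median was -0.096. Mbtps2, the protease that makes the second cut in ATF6, was at 3.17 against 2.04 FPKM and Eif2s1, the target of PERK, at 34.0 against 25.8 FPKM. Cebpg, a partner of ATF4, was at 4.76 against 6.85 FPKM, and Vldlr, a lipoprotein receptor, was lowest at 0.40 against 1.66 FPKM. Of 16 genes of ER-associated degradation 12 were above 0, with a median of 0.029 (-0.12 with a common total), from Sel1l, the adaptor of the HRD1 ligase, at 7.43 against 9.75 FPKM, and the lectin Os9, at 86.5 against 101.8 FPKM, to Edem2 at 20.5 against 15.9 FPKM and Ube2g2 at 30.9 against 23.7 FPKM. The 15 other mitochondrial genes, mostly chaperones and proteases, had a median of -0.033 with 6 above 0, while all 3 mitochondrial members were above 0. The low end of the 15 was Atf5, a transcription factor gene, at 3.87 against 4.99 FPKM, and Clpb at 6.41 against 7.66 FPKM. At the high end were Dnajc19 at 10.4 against 8.90 FPKM and Dnaja3 at 28.3 against 25.4 FPKM. Of all 127 genes in these lists 0 were 2-fold higher or lower with the pseudocount of 1, against 2.47% and 3.38% of all genes. Without the pseudocount 0 were 2-fold higher and 1, Vldlr, was 2-fold lower, against 4.11% and 5.13% of all genes. The counting interval of Vldlr on the log2 ratio was -2.47 to -1.68, from 67 against 290 fragments.

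**Figure D4:**
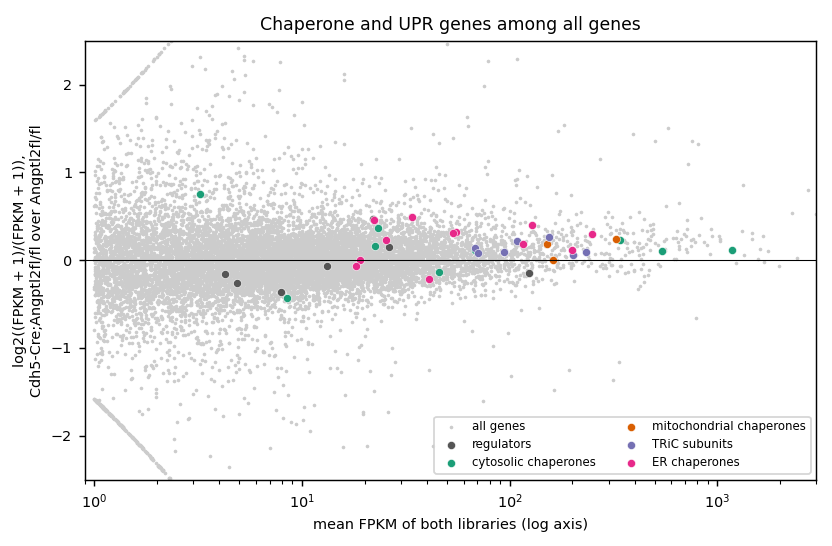
Log2((FPKM + 1)/(FPKM + 1)), mutant over control, against the mean FPKM of both libraries on a log axis, for all genes past the minimum of 1 FPKM (grey) and the 38 compared members coloured by role. The members lie inside the cloud of genes of their level, with Hspa1b highest at 0.75 and Bag3 lowest at -0.44, and 132 genes beyond the axes are not drawn.

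Plasma cells, which carry large amounts of ER chaperone mRNA, are one type a marrow sort can hold. Of 10 plasma cell markers 7 averaged at least 1 FPKM, of which 5 were below 0 and 2 at least 2-fold lower, and the summed level of all 10 was 399 FPKM in the mutant library and 665 FPKM in the control library. Nearly all of that difference was Igkc, at 208 against 467 FPKM, while Ighm, the other abundant marker, was at 169 against 164 FPKM. Fkbp11, an ER folding enzyme, had 58 against 47 fragments, with an interval that included equality. The defining receptor gene Tnfrsf17 was listed at 0 in the mutant library and at 0.35 FPKM, from 5 fragments, in the control library, and Prdm1 was at 0.20 FPKM in both. The 2 markers at least 2-fold lower were Igkc and Mzb1. Jchain was also lower, with an interval of -0.79 to -0.49, while the intervals of Sdc1 and Irf4, both below 0, included equality. Of the 7 compared markers only Ighm and Fkbp11 were above 0, and the interval of Ighm, -0.011 to 0.099, included equality too. The list thus leaned lower in the mutant library, and no marker with an interval was higher beyond counting error. Of the 6 promyelocyte markers given above, 5 were higher in the mutant library, and Ctsc was lower, at 3.14 against 3.76 FPKM. Among the 5 were the abundant secretory granule products Mpo (723 against 281 FPKM) and Elane (1084 against 423 FPKM). The part of either list in the ER chaperone values was not tested.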

How the data were processed

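RNA of HSCs was sequenced as 150 bp paired-end reads, 1 library per genotype, per the labels. The authors deposited FPKM for 54531 Ensembl genes. The submitters' processing notes list Bowtie 0.12.2 and mm8 without saying how they were used, and the program behind the FPKM is not given in the sources used here. Exon lengths came from GENCODE M21 (54494 identifiers matched) and symbols from a list of gene names (54408 matched). FPKM times exon length fell within 0.02 of a whole fragment number for 96.1% (mutant) and 96.5% (control) of genes above 0, which gave depth and fragment numbers. Counting intervals are exact Clopper-Pearson intervals at 95%, which cover counting error alone, as duplicate reads may come from 1 molecule.

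Ratios used a pseudocount of 1 and a minimum mean of 1 FPKM, which understates differences of low genes. Python 3.11.15 with scipy 1.17.1 was used, and the computation was tested on simulated data. Members, lists and thresholds were chosen with earlier results of these data known. The motifs, windows and length comparison were added after seeing the data. All 40 members are named, and of each wider list the 2 highest and 2 lowest ratios. Marker genes named singly were chosen after their values were seen. Alternatives were pseudocounts and none, minimums, fold thresholds, scalings and added pseudogenes.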

Additional observations from a re-analysis of the deposited data

How the results depend on the processing

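No paired analysis was possible because each genotype has 1 library, and for the same reason no replicate could be left out. The count of members 2-fold higher or lower was 0 in both directions under every scaling and minimum tried, with pseudocounts of 0.1, 1 and 5, and at 4-fold. Without a pseudocount, an alternative added after seeing the data, 1 was higher (Hspa1b) and 0 lower, and with a 1.5-fold threshold 1 was higher (Hspa1b) and 0 lower. Most results that moved did so with scaling. The exceptions were the regulators' median, at -0.072 for the 5 with a mean of at least 5 FPKM against -0.14, and the log2 ratio of Hspa1b, at 0.38 with a pseudocount of 5 against 0.75. With both libraries on a common total (the TPM scale) the members' median log2 ratio was -0.017 and 18 members were above 0, with 11 of 38 members changing sign. Scaling without mitochondrially encoded genes gave a median of 0.060, with 3 of 38 changing sign. Pseudocounts of 0.1 and 5 and none, other minimums, added pseudogenes, median centring, trimmed-mean scaling and the mean of the members left the median between 0.12 and 0.14. A minimum of 200 fragments and the common total centred on the median of all genes, both added after seeing the data, gave 0.12 and 0.13. Depth limits Hspa1a, Hspa1b and Hspb1, with under 250 fragments each, while the other members with a recovered fragment number had at least 304.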
